A study of Danio rerio with 6 samples.

Results

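Skeletal muscle sarcomere and creatine kinase genes were followed in RNA-seq of juvenile zebrafish gonads. The 10 genes were chosen by symbol: the titin genes *ttn.1* and *ttn.2*, the fast myosin heavy chain genes *myhz1.1* and *myhz2*, the fast myosin light chain gene *mylpfa*, the thin filament genes *tnnt3b*, *tpma* and *acta1b*, and the muscle creatine kinase genes *ckma* and *ckmb*. All 10 were found among the 32520 genes of the count tables, and all 10 passed the filter on low counts that left 20091 genes for testing. Wild-type gonads (tg(ziwi:GFP), eif4e1b +/+) were compared with mutant gonads (tg(ziwi:GFP), eif4e1b -/-), with 3 samples of each genotype and 3 gonads pooled in each sample. Fish of both genotypes were siblings and carried *ziwi:GFP*, a transgene in which the *ziwi* promoter drives green fluorescent protein in germ cells, and juveniles with strong fluorescence in the gonad were chosen. The labels give the tissue as ovary and the sex as female. The paper describes brightly fluorescent gonads of mutant juveniles as ovaries or as gonads with developing sperm. It takes the latter as most likely ovaries turning into testes. The kind of gonad in each sequenced pool was not examined here. The samples are described as biological replicates, and which of the study's frameshift alleles the mutant fish carried is not given in the sources used here.

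The sarcomere is the repeating contractile unit of striated muscle. Thick filaments of myosin pull on thin filaments of actin, titin spans from the Z-disc to the M-line and keeps the thick filament centred, and troponin and tropomyosin on the thin filament open the myosin binding sites when calcium is released. Muscle creatine kinase regenerates ATP beside the filaments. Skeletal muscle fibres are not a cell type of the gonad, whereas smooth muscle cells are found in gonadal stroma and vessel walls in vertebrates.

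The depth of wild-type samples was 11771342 to 13362230 counts, and that of mutant samples was lower, at 5539470 to 8233080 counts. Counts of *eif4e1b* (ENSDARG00000014565), the mutated gene, reached 1116 to 1391 in each wild-type sample, against 9 to 55 in each mutant sample. Of 12 oocyte markers, all 12 were lower in mutant gonads (edgeR's quasi-likelihood test, adjusted p under 0.05), with a median log2 fold change of -6.07. Their summed level was 9490 to 12457 TMM-CPM in wild-type and 105 to 495 in mutant samples. The marker *dazl*, named after its values were seen, had means of 263 and 131 TMM-CPM (log2 fold change -1.0). The oocyte content of the samples was not measured. TMM-CPM are a gene's counts as a share of the library, multiplied by 1e+06 and scaled with edgeR's TMM factors. With no gene lengths used, a level is compared between samples of a gene and never between genes.

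RNA of 9 of the 10 muscle genes was higher in mutant gonads, by log2 fold changes from 2.81 for *ckma* to 4.0 for *myhz2*, and no muscle gene was lower. In the same test 37.5% of all tested genes were higher and 32% were lower in mutant gonads. For the same 9 genes, all 3 mutant samples lay above all 3 wild-type samples, which held for 39.8% of all tested genes, and the opposite order held for 0 of the 10 genes and for 35.4% of all tested genes. The median log2 fold change was 3.34 over the 10 genes and 0.23 over all tested genes. Of all genes called, 53.9% were higher with TMM factors, 68.8% when samples were scaled by library totals and 71.1% by upper quartiles, and the median of all tested genes moved to 0.65 and 0.92 while that of the 10 genes moved to 3.87 and 4.04. The remaining gene, *acta1b*, did not pass the test and its groups overlapped. In bulk samples, more cells with this RNA and more of it per cell cannot be told apart. The cells that the RNA came from were not identified. An exact permutation test of 3 samples against 3 cannot give a two-sided p under 0.1, so the adjusted p-values below come from the edgeR fit across all tested genes.

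**Figure D1:**
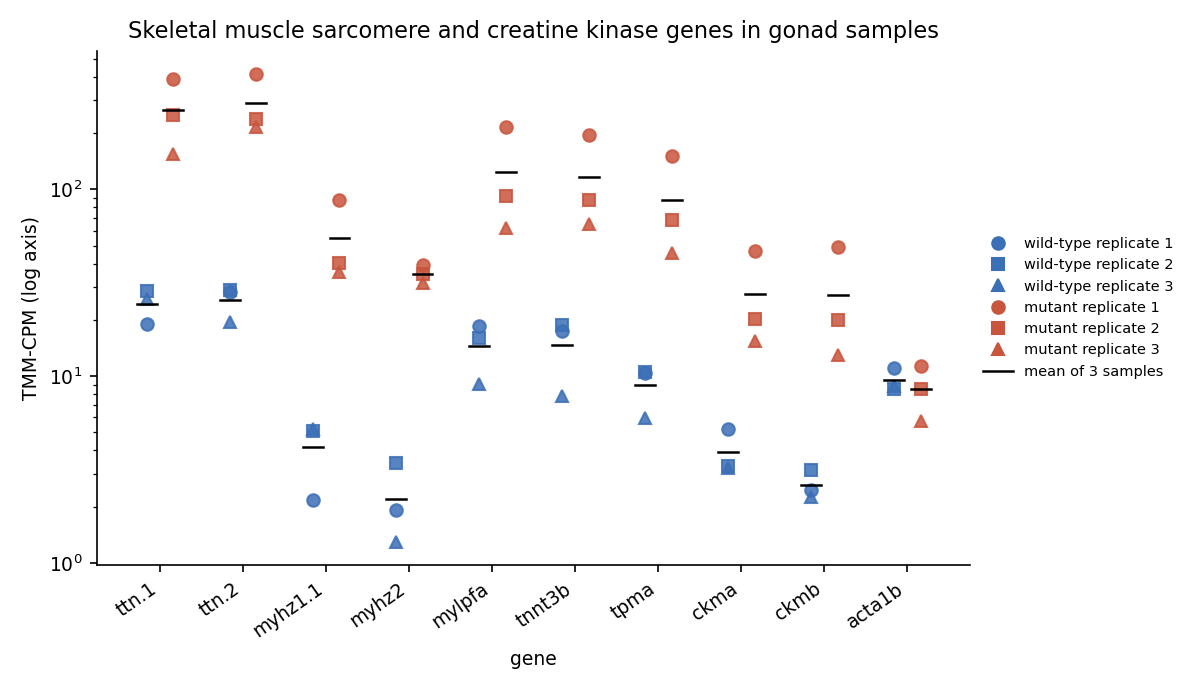
Level of each of the 10 muscle genes in TMM-CPM (log axis) in each gonad sample, with wild-type samples in blue, mutant samples in red, a symbol for each replicate number and a black bar at the mean of 3 samples. For 9 genes every red point lies above every blue point, while the points of *acta1b* lie between 5.74 and 11.3 in both genotypes.

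Titin is the giant elastic protein of the sarcomere, and zebrafish carry a pair of titin genes, *ttn.1* (ENSDARG00000000563) and *ttn.2* (ENSDARG00000028213), on the same chromosome with 1 RefSeq gene between them. In the order of replicates 1, 2 and 3, kept throughout, levels of *ttn.1* were 18.9, 28.5 and 25.8 TMM-CPM in wild-type samples and 388, 251 and 154 in mutant samples. The lowest mutant sample was 5.40 times the highest wild-type sample, and *ttn.1* rose by a log2 fold change of 3.44 (SE 0.395, adjusted p = 0.000673). Levels of *ttn.2* were 28.2, 28.8 and 19.6 TMM-CPM in wild-type and 414, 239 and 216 in mutant samples. Its groups were also far apart, with a lowest mutant to highest wild-type ratio of 7.51 and a log2 fold change of 3.51 (SE 0.345, adjusted p = 0.000429). The means were 24.4 ± 4.94 and 264 ± 118 TMM-CPM for *ttn.1* and 25.5 ± 5.15 and 290 ± 108 for *ttn.2* (SD, n = 3 per genotype). When the counts of both titin genes were summed, since reads that match both may be split between them, the log2 fold change was 3.47 (SE 0.363, adjusted p = 0.000499). Titin had the most reads of the 10 genes, with 1153 to 3380 counts per gene in each mutant sample and 208 to 312 in each wild-type sample.

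Myosin heavy chains form the thick filament and carry the motor head. The genes *myhz1.1* (ENSDARG00000067990) and *myhz2* (ENSDARG00000012944) code for fast skeletal myosins and lie in a cluster, with *myhz1.2*, *myhz1.3*, *myha* and *myhc4* as the 4 RefSeq genes between them. The level of *myhz1.1* was 2.18, 5.07 and 5.19 TMM-CPM in wild-type and 88.0, 40.5 and 36.0 in mutant samples, a log2 fold change of 3.72 (SE 0.509, adjusted p = 0.00119). For *myhz2* the level was 1.91, 3.41 and 1.3 TMM-CPM in wild-type and 39.2, 35.2 and 31.6 in mutant samples, a log2 fold change of 4.0 (SE 0.388, adjusted p = 0.000417). Its mutant samples were the most alike of the 9 higher genes, with a highest to lowest ratio of 1.24, and its lowest mutant sample was 9.27 times its highest wild-type sample. In wild-type gonads these genes rested on few reads, 24 to 60 counts for *myhz1.1* and 15 to 37 for *myhz2* in each sample. The sum of *myhz1.1*, *myhz1.2*, *myhz1.3* and *myhz2*, whose sequences are similar, rose by a log2 fold change of 3.80 (SE 0.455, adjusted p = 0.000766). The fast regulatory light chain gene *mylpfa* (ENSDARG00000053254), whose product binds the neck of the myosin head, stood at 18.5, 16 and 9.08 TMM-CPM in wild-type and 215, 92.5 and 62.3 in mutant samples. Its groups did not overlap, and its log2 fold change was 3.08 (SE 0.535, adjusted p = 0.00272). Its paralog *mylpfb* had 0 to 6 counts in every sample and was not tested.

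On the thin filament, troponin T anchors the troponin complex to tropomyosin, and *tnnt3b* (ENSDARG00000068457) codes for a fast skeletal form. Its level was 17.3, 18.7 and 7.79 TMM-CPM in wild-type and 196, 87.2 and 64.8 in mutant samples, a log2 fold change of 2.99 (SE 0.534, adjusted p = 0.00304). Tropomyosin, the rod that covers the myosin binding sites on actin, is coded by *tpma* (ENSDARG00000033683) among others, and *tpma* stood at 10.4, 10.5 and 5.97 TMM-CPM in wild-type and 150, 68.9 and 45.4 in mutant samples. It rose by a log2 fold change of 3.30 (SE 0.507, adjusted p = 0.00178). For both genes wild-type replicate 3 was the lowest sample, and no wild-type sample reached the lowest mutant sample.

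The skeletal alpha-actin gene *acta1b* (ENSDARG00000055618) did not share this pattern. Its level was 11.1, 8.57 and 8.83 TMM-CPM in wild-type and 11.3, 8.53 and 5.74 in mutant samples, with means of 9.49 ± 1.38 and 8.51 ± 2.76 (SD, n = 3 per genotype). The genotypes overlapped, and the log2 fold change of -0.16 (SE 0.322, adjusted p = 0.682) changed sign when samples were scaled by library totals (0.30) or upper quartiles (0.54), or when its copy *ACTA1* (ENSDARG00000036371) was added (0.077). The counts behind these levels were 122, 93 and 102 in wild-type and 92, 55 and 43 in mutant samples, so the gene was measured with more reads than *myhz1.1* or *ckmb* in wild-type gonads. *ACTA1* itself stood at 1.90 to 2.63 TMM-CPM in wild-type and 2.27 to 6.36 in mutant samples and did not pass the test (log2 fold change 0.79, SE 0.490, adjusted p = 0.185), though it did with upper quartiles (1.48, adjusted p = 0.0335). A further alpha-actin gene, *actc1b* (ENSDARG00000099197), measured 34.6, 29.5 and 17.7 TMM-CPM in wild-type and 447, 184 and 110 in mutant samples and rose by a log2 fold change of 3.18 (SE 0.576, adjusted p = 0.00321), or 2.39 without mutant replicate 1.

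Muscle creatine kinase passes phosphate between phosphocreatine and ADP and is an enzyme of the cytosol and M-line rather than a filament protein. Levels of *ckma* (ENSDARG00000035327) were 5.18, 3.32 and 3.20 TMM-CPM in wild-type and 46.8, 20.2 and 15.5 in mutant samples, a log2 fold change of 2.81 (SE 0.490, adjusted p = 0.00276). Levels of *ckmb* (ENSDARG00000040565) were 2.45, 3.13 and 2.25 TMM-CPM in wild-type and 49.1, 19.9 and 12.9 in mutant samples, a log2 fold change of 3.38 (SE 0.547, adjusted p = 0.00213). Neither gene overlapped between genotypes. The ratio of the lowest mutant to the highest wild-type sample was 2.99 for *ckma*, the smallest of the 9 higher genes, and the mutant samples of *ckmb* were the most spread, with a highest to lowest ratio of 3.79. The counts of the pair summed rose by 3.07 on the log2 scale (SE 0.491, adjusted p = 0.00203).

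**Figure D2:**
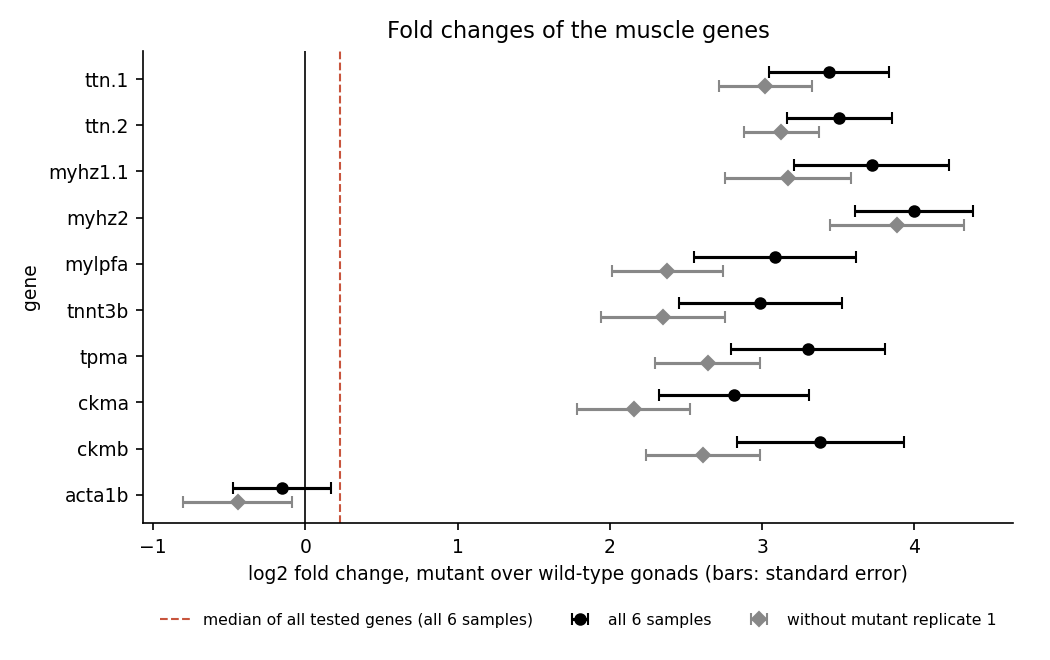
Log2 fold change of mutant over wild-type gonads for each of the 10 muscle genes, with bars for the standard error, from all 6 samples (black) and without mutant replicate 1 (grey). The dashed line marks the median of all tested genes, 0.23, and 9 genes lie between 2.81 and 4.0 with all samples and between 2.16 and 3.89 without mutant replicate 1.

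The mutant samples differed among themselves in the same order for each of the 10 genes on the TMM-CPM scale, with mutant replicate 1 highest and mutant replicate 3 lowest, *acta1b* included. The summed level of the 10 genes was 116, 126 and 88.9 TMM-CPM in wild-type and 1598, 863 and 644 in mutant replicates 1, 2 and 3. As a share of all counts it was 0.00975%, 0.0116% and 0.00769% in wild-type and 0.236%, 0.0676% and 0.0816% in mutant samples. On this unscaled measure mutant replicate 1 was again highest, but mutant replicate 2 and not mutant replicate 3 was lowest. Without mutant replicate 1 the median log2 fold change of the 10 genes was 2.63, and those of *ckmb* (2.61), *mylpfa* (2.38), *tpma* (2.64), *ckma* (2.16) and *tnnt3b* (2.35) were each more than 1.5 times smaller on the linear scale. All 9 genes stayed past the threshold in that fit (largest adjusted p = 0.00536). Among wild-type samples, replicate 3 was lowest for 7 of the 10 genes, and the highest to lowest ratio of the 9 higher genes ranged from 1.39 for *ckmb* to 2.63 for *myhz2*.

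Within the summed counts of the 10 genes *acta1b* held a different share in each genotype. The share of *acta1b* was 9.55%, 6.80% and 9.92% in wild-type and 0.705%, 0.989% and 0.891% in mutant samples. The level of *acta1b* itself did not pass the test (log2 fold change -0.16), so its smaller share follows from the rise of the other genes and is no separate result. Leaving *acta1b* out, the share of *tpma* was 7.45% to 9.86% in wild-type and 7.11% to 9.46% in mutant samples, and that of *ckmb* was 2.34% to 2.81% and 2.03% to 3.10%. For these genes the ranges of the genotypes overlapped, although the 10 genes together took 5.82 to 30.6 times more of all counts in a mutant than in a wild-type sample. The share of *ttn.1* varied most, from 18.0% to 32.2%, both in wild-type samples. For *myhz2* the share was 1.62% to 2.90% in wild-type and 2.47% to 4.95% in mutant samples, which overlapped in mutant replicate 1. The share of *ttn.2* also leaned higher, at 24.4% to 26.8% in wild-type and 26.1% to 33.8% in mutant samples. That of *ckma* leaned lower, at 2.83% to 4.93% and 2.36% to 2.95%. The ranges of both genes overlapped between genotypes. Longer transcripts give more reads, so a share describes reads and is set only against the same gene in other samples.

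**Figure D3:**
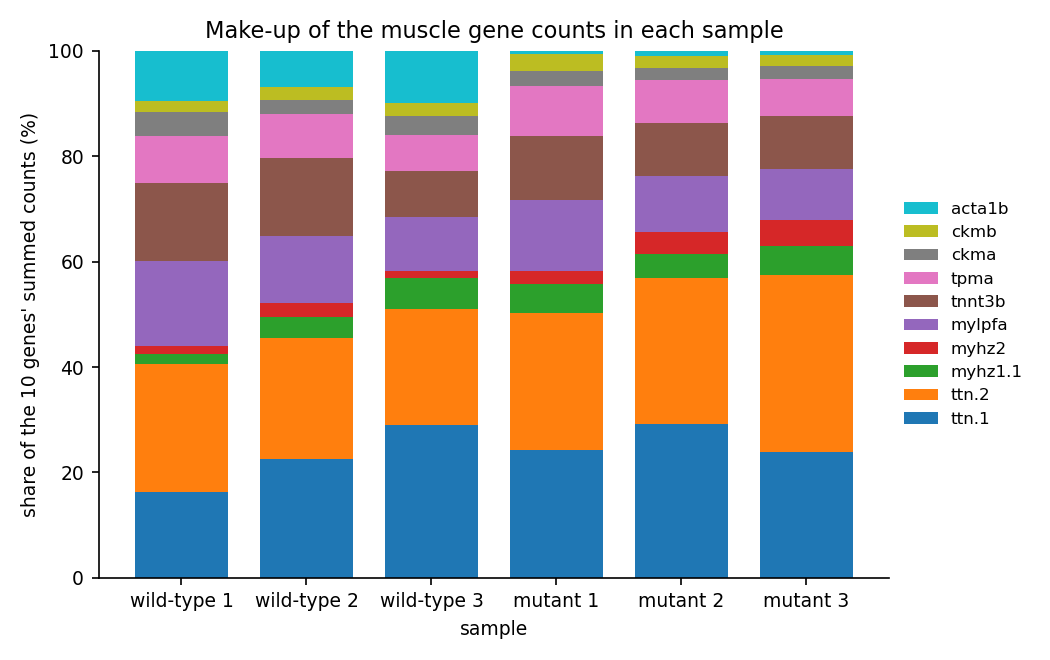
Share (%) of each of the 10 muscle genes in their summed counts, as a stacked bar for each gonad sample. The cyan band of *acta1b* falls from between 6.80% and 9.92% in wild-type samples to under 1% in mutant samples, while those of *tpma* and *ckmb* keep overlapping ranges between genotypes. The bands are shares, and the level of *acta1b* itself did not pass the test.

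Other genes of skeletal muscle were read from 6 lists drawn up by function, with earlier results of these data known. Of 107 tested genes, 76 (71.0%) were higher, 9 (8.41%) were lower and 22 did not pass the test, with a median log2 fold change of 2.47. Of all tested genes 37.5% were higher and 32% were lower, which is the background for each list and marker count below. Of the 137 genes matched, 30 had too few counts to be tested. A gene that passes this filter mainly through its mutant samples is bound to be higher, so the shares hold for tested genes alone.

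Among other thick filament and M-line genes, 20 of 22 were higher, 1 was lower and 1 did not pass the test (median log2 fold change 2.81). The fast myosin heavy chain gene *myha* stood at 15.2, 46.1 and 27.7 TMM-CPM in wild-type and 574, 265 and 164 in mutant samples (log2 fold change 3.49, SE 0.618, adjusted p = 0.00293). Its neighbours *myhc4* and *myhz1.2* rose by 3.58 and 3.57, *myhz1.3* by 4.34, and *mylz3*, a fast myosin light chain gene, by 2.93 on the log2 scale. Without mutant replicate 1 the values were 2.82 for *myha*, 2.96 for *myhz1.2* and 2.24 for *mylz3*, and without wild-type replicate 2 *myhc4* rose by 4.25. The slow myosin heavy chain genes *smyhc1* and *smyhc2*, named after their values were seen, stood at 0.184 to 1.29 TMM-CPM in wild-type and 0.934 to 7.91 in mutant samples. The log2 fold changes were 2.68 (SE 0.558, adjusted p = 0.0054) for *smyhc2* and 2.33 (SE 0.746, adjusted p = 0.0276) for *smyhc1*, and the latter lost its call when wild-type replicate 1 or 2 or mutant replicate 1 or 2 was left out (adjusted p from 0.0638 to 0.0785).

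Among other thin filament genes, 11 of 18 were higher, 2 were lower and 5 did not pass the test (median log2 fold change 2.53). Beside *actc1b*, the higher genes included *neb*, which codes for nebulin along the thin filament (3.27), and *tnnc2*, which codes for the fast calcium-binding troponin C (3.28, or 2.52 without mutant replicate 1). The Z-disc and intermediate filament list held 9 higher, 2 lower and 6 genes not past the test of 17 (median 1.79), and its gene with the highest mean TMM-CPM, *xirp2a*, measured 7.99, 3.32 and 8.22 TMM-CPM in wild-type and 46.0, 248 and 61.4 in mutant samples. Xirp2 proteins bind actin in striated muscle, and *xirp2a* rose by a log2 fold change of 4.18 (SE 0.777, adjusted p = 0.00353). Mutant replicate 2 was its highest sample, unlike for the 10 muscle genes, and without it the log2 fold change was 3.06. The filamin gene *FLNC* (ENSDARG00000018820) stood at 6.27, 110 and 105 TMM-CPM in wild-type and 40, 27.6 and 24.8 in mutant samples and did not pass the test (-1.26, SE 0.873, adjusted p = 0.232). Without wild-type replicate 1, its low sample, it was past the threshold in the lower direction (-1.84, adjusted p = 0.00229). Another *FLNC* gene (ENSDARG00000018566), named after its values were seen, was higher in mutant gonads (log2 fold change 2.91, SE 0.727, adjusted p = 0.011). It rested on few reads, with 3, 7 and 15 counts in wild-type and 21, 64 and 34 in mutant samples.

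Genes of excitation-contraction coupling and calcium handling, which release calcium to the sarcomere and pump it back, were higher for 20 of 26, with 1 lower and 5 not past the test (median 2.56). Summed over this list the level was 119 to 125 TMM-CPM in wild-type and 508, 370 and 271 in mutant samples. The sums of the thick filament and myogenic regulator lists did not overlap between genotypes either. Sums overlapped for the thin filament list, at 884 to 928 TMM-CPM in wild-type and 659 to 1118 in mutant samples. They also overlapped for the Z-disc list (114 to 202 and 168 to 402) and the energy metabolism list (1789 to 2096 and 393 to 3089). Over all 137 genes of the 6 lists they overlapped too (3187 to 3490 and 2382 to 5766). Such sums follow the genes with the highest levels. In wild-type replicate 1, *tpm3* and *tpm1* stood at 469 and 301 of the 928 TMM-CPM of the thin filament list. In that sample *gyg1a* and *eno3* stood at 960 and 923 of the 2078 TMM-CPM of the energy metabolism list. An overlap of sums does not tell how many genes of a list differed. Parvalbumin buffers calcium in fast fibres, and *pvalb1* stood at 15.7, 8.29 and 7.09 TMM-CPM in wild-type and 120, 71.1 and 40.8 in mutant samples (log2 fold change 2.89, SE 0.493, adjusted p = 0.00255). The calcium pump gene *atp2a1l* rose by 2.63 and the ryanodine receptor gene *RYR3* by 2.86, while *RYR1* (ENSDARG00000023797) stood at 25.9 to 30.4 TMM-CPM in wild-type and had a mean of 20.9 ± 10.1 (SD, n = 3) in mutant samples and did not pass the test (adjusted p = 0.356). Another *RYR1* gene (ENSDARG00000011422), named after its values were seen, did rise (log2 fold change 2.89, SE 0.434, adjusted p = 0.00164). It stood at 4.54, 1.47 and 3.20 TMM-CPM in wild-type and 19.8, 20.6 and 28.1 in mutant samples. The lower gene was the calcium channel gene *cacna1da* (-1.14, SE 0.425, adjusted p = 0.0466), whose call was lost when any sample but wild-type replicate 1 was left out (adjusted p from 0.0903 to 0.124).

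**Figure D4:**
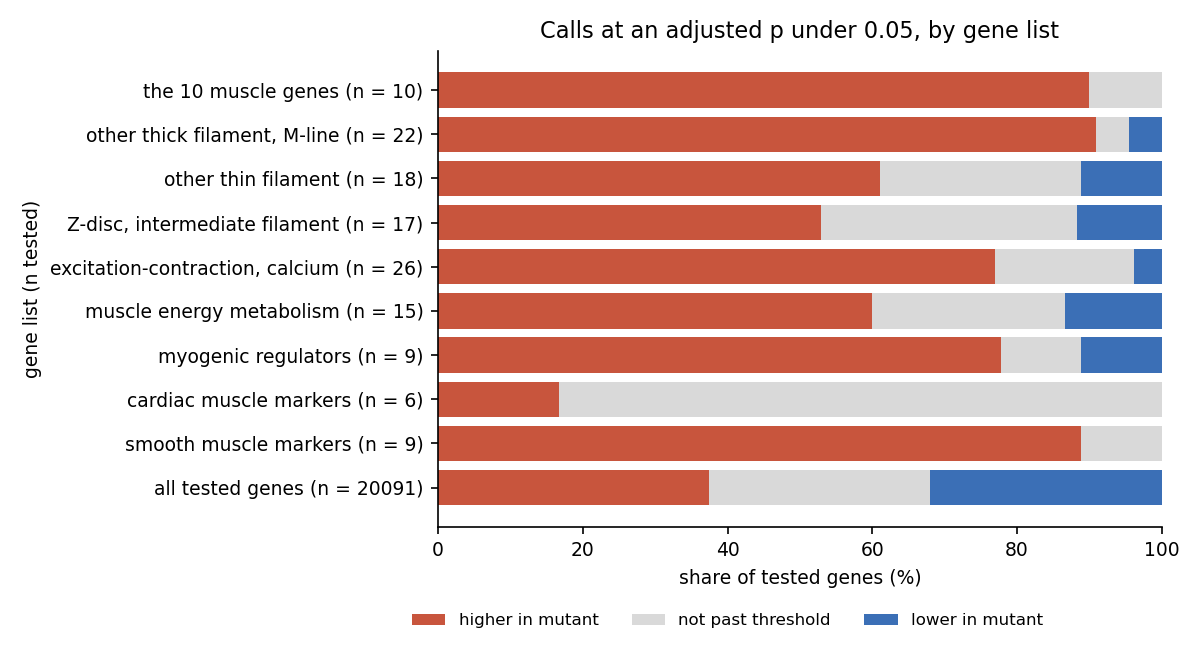
Share (%) of the tested genes of each list that were higher (red), not past the threshold (grey) or lower (blue) in mutant gonads, with the number of tested genes beside each list and all 20091 tested genes in the bottom bar. The red part covers 90.0% for the 10 muscle genes, 90.9% for other thick filament and M-line genes, 16.7% for cardiac markers and 37.5% for all tested genes.

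Energy metabolism genes of muscle split by gene, with 9 of 15 higher, 2 lower and 4 not past the test (median 2.16). Both lower genes changed by more than 3 on the log2 scale: *gyg1a*, which codes for the glycogen primer glycogenin, fell from 659 to 960 TMM-CPM in wild-type to 35.6 to 54.3 in mutant samples (-4.09, SE 0.327, adjusted p = 0.000308), and *pfkma*, which codes for a phosphofructokinase of glycolysis, fell from 69.2 to 104 to 5.27 to 6.54 (-3.84, SE 0.237, adjusted p = 0.000286). The beta-enolase gene *eno3* measured 923, 986 and 1093 TMM-CPM in wild-type and 183, 2330 and 410 in mutant samples, so that a single mutant sample lay above and the others below wild-type. The fatty acid binding protein gene *fabp3* was likewise highest in mutant replicate 2, with 45.4, 595 and 140 TMM-CPM in mutant and 66.0 to 81.2 in wild-type samples. Neither gene passed the test (adjusted p = 0.971 and 0.0861). Without mutant replicate 2, *eno3* was past the threshold in the lower direction (-1.76, adjusted p = 0.0082), and without mutant replicate 1, *fabp3* was past it in the higher direction (2.31, adjusted p = 0.015). With all samples *fabp3* was also past it with DESeq2 (1.63, adjusted p = 0.0432), library totals (1.91, adjusted p = 0.0276) and upper quartiles (2.54, adjusted p = 0.0339). *fabp3* did not pass with limma-voom (adjusted p = 0.265) or the replicate block (adjusted p = 0.2795). Without mutant replicate 2, its highest sample, the log2 fold change of *fabp3* was 0.345 (adjusted p = 0.488).

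Of the myogenic regulators and muscle stem cell genes, 9 of 19 had enough counts to be tested, and 7 were higher, 1 was lower and 1 did not pass the test (median 1.84). The Mef2 transcription factors drive muscle genes and are also made in other tissues. *MEF2D* stood at 11.4, 14.5 and 11.2 TMM-CPM in wild-type and 45.8, 34.1 and 53.2 in mutant samples (log2 fold change 1.84, SE 0.240, adjusted p = 0.00101), *mef2aa* rose by 2.39 and *mef2cb* by 3.61. The adhesion gene *jam2a*, needed for fusion of zebrafish muscle precursors, did not pass the test (0.13, SE 0.171, adjusted p = 0.511), though it did with upper quartiles (0.82, adjusted p = 0.00603). The regulators that define the muscle lineage had few counts: *MYOD1* had 0 to 4 in wild-type and 5 to 12 in mutant samples, *MYOG* 0 to 4 and 1 to 9, *MYF5* 0 to 2 and 1 to 13, and *MYF6* 0 to 6 and 6 to 9. These 4 genes, named after their values were seen, were not tested. The lower gene was *pax7b*, a muscle stem cell factor also made in other cells, at 5.16 to 10.4 TMM-CPM in wild-type and 0.800 to 4.19 in mutant samples (-1.93, adjusted p = 0.0327), and its call was lost without wild-type replicate 1 or 3 or mutant replicate 1 (adjusted p from 0.0665 to 0.0915). Without mutant replicate 2 *pax7b* fell by 2.89. Another Pax7 gene, *PAX7* (ENSDARG00000100398), named after its values were seen, was higher in mutant gonads (log2 fold change 3.62, SE 0.915, adjusted p = 0.0114). *PAX7* rested on few reads, with 1, 1 and 5 counts in wild-type and 6, 32 and 19 in mutant samples.

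Within several sarcomere families a paralog went the other way. The tropomyosin gene *tpm1* stood at 301, 324 and 341 TMM-CPM in wild-type and 98.2, 54.5 and 93.4 in mutant samples, and fell by 1.97 on the log2 scale (SE 0.279, adjusted p = 0.00134) while *tpma* rose. The remaining tropomyosin genes of the lists did not pass the test, with *tpm3* at 425 to 469 TMM-CPM in wild-type and 263 to 473 in mutant samples and *tpm2* at 51.5 to 66.6 and 62.9 to 135, with log2 fold changes of -0.42 and 0.58. Without mutant replicate 2 *tpm3* was past the threshold in the lower direction (-0.73, adjusted p = 0.00766), and *tpm2* was past it in the higher direction with library totals (0.88, adjusted p = 0.0315) and upper quartiles (1.27, adjusted p = 0.0106). *TNNT3* (ENSDARG00000030270), the paralog of *tnnt3b*, measured 44.4, 14.7 and 16.6 TMM-CPM in wild-type and 3.43, 3.41 and 4.94 in mutant samples, and fell by 2.68 (SE 0.504, adjusted p = 0.00368). The groups of both troponin genes were apart in opposite directions, and their summed counts rose by 1.59 (SE 0.504, adjusted p = 0.0268), more than 1.5 times less than *tnnt3b* alone on the linear scale. Among alpha-actinin genes, which crosslink thin filaments at the Z-disc, *actn3a* rose by 3.09 (SE 0.524, adjusted p = 0.00251), *actn2b* fell by 1.79 (SE 0.319, adjusted p = 0.00301) and *actn3b* fell by 0.97 (SE 0.324, adjusted p = 0.0318). The call of *actn3b* was lost under scaling by library totals or upper quartiles and without wild-type replicate 1 or 3 or mutant replicate 2 or 3 (adjusted p from 0.0533 to 0.0873 when a sample was left out). With library totals its log2 fold change was -0.45 (adjusted p = 0.437) and with upper quartiles -0.28 (adjusted p = 0.48). Myomesin genes of the M-line showed the same split, with *myom1a* at a mean of 30.2 TMM-CPM in wild-type and 7.74 to 16.5 in mutant samples (-1.39, SE 0.303, adjusted p = 0.00646), a call lost under scaling by library totals or upper quartiles (adjusted p = 0.119 and 0.0865), and *myom2a* (2.87) and *MYOM1* (3.66) higher. Without wild-type replicate 1 the values were 3.77 for *myom2a* and -2.03 for *TNNT3*, and without wild-type replicate 3 *MYOM1* rose by 4.25. *actn3a*, *myom1a*, *myom2a* and *MYOM1* were named after their values were seen.

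**Figure D5:**
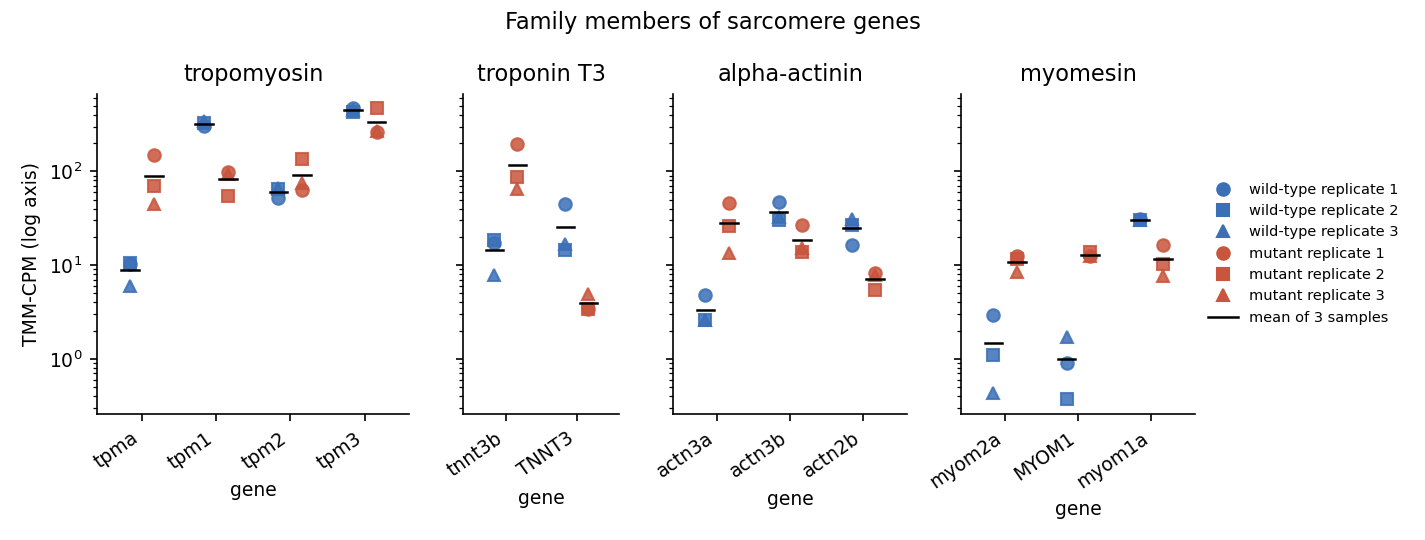
Levels in TMM-CPM (log axis) of tropomyosin, troponin T3, alpha-actinin and myomesin genes in each gonad sample, with wild-type samples in blue, mutant samples in red, a symbol for each replicate number and a black bar at the mean of 3 samples. Red points lie above blue points for *tpma*, *tnnt3b*, *actn3a*, *myom2a* and *MYOM1* and below them for *tpm1*, *TNNT3*, *actn3b*, *actn2b* and *myom1a*.

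The genes whose levels over the 6 samples were most like those of the 10 muscle genes were searched among 11254 tested genes with a mean of at least 10 TMM-CPM. Likeness was the Euclidean distance between centred log2(TMM-CPM + 0.5) profiles, measured to the median profile of the 10 genes. The nearest non-member genes were *pvalb2* (distance 0.271), *actc1b* (0.50), *mylz3* (0.511), *tnnc2* (0.560), *neb* (0.659) and *atp2a1l* (0.707), all of them from the muscle lists. Of the 10 genes themselves, which are part of the median they were measured against, 7 lay between 0.285 (*tpma*) and 0.792 (*ttn.1*), while *myhz1.1* was at 1.3 (rank 93) and *myhz2* at 1.42 (rank 176), farther than each non-member named here. *acta1b* was not ranked because its mean was below the minimum. Of the 30 nearest genes 23 were not among the 10, and 10 of these 23 came from the muscle lists, including the 8 nearest. The muscle lists held 107 of the 20091 tested genes, and their share of the 11254 genes searched was not counted. The measure follows the difference between genotypes and the order of the mutant samples alike, and its points share libraries and scaling.

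Of the cardiac muscle markers, 9 of 15 had too few counts to be tested, 1 of the 6 tested genes was higher and 5 did not pass the test, and their summed level was 6.45 to 13.3 TMM-CPM in wild-type and 9.18, 42.5 and 10.5 in mutant samples in order. The higher gene was *HAND2* (2.17, SE 0.592, adjusted p = 0.0153), a transcription factor of the heart and other tissues. Among the untested markers *MYL7* and *nppa* had 0 to 2 counts in every sample, but mutant replicate 2 held more counts of others: *myh6* (ENSDARG00000090637) had 0, 0 and 7 counts in wild-type and 3, 64 and 4 in mutant samples, *MYBPC3* 2 to 5 and 7, 32 and 1, and *cmlc1* 0 to 1 and 0, 16 and 0. These 5 genes and *HAND2* were named after their values were seen. *MYH6* (ENSDARG00000079564), the cardiac marker with the highest mean TMM-CPM, stood at 0 to 1.12 TMM-CPM in wild-type and 2.69, 9.0 and 1.47 in mutant samples and did not pass the test (log2 fold change 2.71, SE 1.07, adjusted p = 0.0563), and *TNNT2* (ENSDARG00000100694) did not pass it either (adjusted p = 0.149). *MYH6* was past the threshold in the higher direction with DESeq2 (2.58, adjusted p = 0.0272), with library totals (2.93, 0.0228), with upper quartiles (3.41, 0.0266), without the filter (2.62, 0.0479) and without mutant replicate 3 (2.98, 0.0499). It did not pass under the other alternatives. Without mutant replicate 2, its highest sample, the log2 fold change of *MYH6* was 1.71 (adjusted p = 0.189). Leaving out mutant replicate 2 brought *TNNT2* past the threshold in the lower direction (-4.18, adjusted p = 0.026). Smooth muscle markers were higher for 8 of 9 tested genes, with a summed level of 65.3 to 107 TMM-CPM in wild-type and 646, 326 and 711 in mutant samples. The smooth muscle myosin gene *myh11a* rose by 3.08 and the actin-binding gene *tagln* by 3.20 on the log2 scale. As a share of all counts, with no TMM factor, the smooth muscle sum was 0.0952%, 0.0255% and 0.0901% in mutant samples, with replicate 1 highest and replicate 2 lowest, as for the skeletal genes on that measure. On the TMM-CPM scale replicate 3 was highest. Without mutant replicate 3, *tagln* rose by 2.52.

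Most tested markers of the pancreas, skin and scale, fibroblast and red blood cell lists were also higher in mutant gonads. Exocrine pancreas markers were higher for 12 of 12 genes (median log2 fold change 7.75), with a summed level of 57.7 to 241 TMM-CPM in wild-type and 25282, 38080 and 42696 in mutant replicates 1, 2 and 3, and *cpa5* and *prss1*, which code for digestive proteases, rose by 7.97 and 7.72. Skin and scale markers were higher for 8 of 10 genes, with a summed level of 38.9 to 139 and of 3220, 1638 and 2418 TMM-CPM, and the keratin genes *krt91* and *krt4* rose by 5.01 and 4.16 (*krt4* by 4.94 without wild-type replicate 1). In turn, fibroblast markers were higher for 8 and lower for 2 of 10 genes, at 447 to 659 and at 5402, 2764 and 2710 TMM-CPM in sum, and the collagen genes *col1a1b* and *col1a1a* rose by 4.74 and 4.34 (5.63 and 5.03 without wild-type replicate 1). Red blood cell markers were higher for 4 of 6 tested genes, at 21.2 to 126 and at 501, 105 and 125 TMM-CPM in sum. These sums overlapped between genotypes, because wild-type replicate 1 held 126 TMM-CPM, of which *epb41b* alone made 108. The globin gene *hbaa1* rose by 3.99 (2.64 without mutant replicate 1, its highest sample), while the membrane skeleton gene *epb41b* did not pass the test (adjusted p = 0.733), though it did without wild-type replicate 1 (2.76, adjusted p = 0.00873). Mutant replicate 1 was the highest sample for the skin, fibroblast and red blood cell sums on the TMM-CPM scale and as a share of all counts, as it was for the muscle genes. Among mutant samples it was also highest for the oocyte markers, which were lower in mutant gonads. Their sums in mutant replicates 1, 2 and 3 were 495, 105 and 225 TMM-CPM, or 0.0730%, 0.00825% and 0.0285% of all counts. For the pancreas sum the order depended on the scaling: mutant replicate 1 was the lowest mutant sample in TMM-CPM, while the shares of all counts were 3.73%, 2.98% and 5.41%, with replicate 2 lowest. The part of other tissues in the muscle gene difference was not tested.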

How the data were processed

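RNA was purified with a column kit from 3 gonads per sample, and libraries were made with a stranded protocol after depletion of ribosomal RNA. The submitters' processing notes name Trim Galore 0.5.0, Bowtie2 2.3.4.1, featureCounts of Subread 1.6.2, DESeq2 1.18.1, R 3.4.1 and the build GRCz11. The authors deposited raw counts for 32520 genes in each sample. The annotation release, whether counting used strand and how reads that match several genes were counted are not given in the sources used here. Symbols came from the study's supplementary tables and a table of gene names (29419 genes), and names in capitals are those of that table. RefSeq gene order (GRCz12tu) was used only to say which genes neighbour each other.

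Genotypes were compared with edgeR 4.0.16 (quasi-likelihood test, TMM factors, two-sided, limma 3.58.1, R 4.3.3) over 20091 genes that passed edgeR's default filter (minimum count 10, minimum total 15), with Benjamini-Hochberg adjustment and a threshold of 0.05. Replicates differed by more than sampling noise (chi-square per degree of freedom 10.4 to 38.6 for wild-type pairs and 29 to 149 for mutant pairs). TMM factors were 0.841, 0.923 and 0.866 in wild-type and 1.48, 0.788 and 1.27 in mutant samples. The 10 genes with the most counts held 3.28% to 4.10% of counts in wild-type samples. They held 7.71%, 21.15% and 11.46% in mutant replicates 1, 2 and 3. Each sample, a pool of 3 gonads, counted as a replicate. The p-values weigh the difference between genotypes against the spread between these pools, and the spread between single fish was not measured. A level of 3 counts was 0.260 to 0.465 TMM-CPM, which covers counting error only. Alternatives were DESeq2 1.42.0, other scalings and filters, limma-voom, summed copies, a replicate block and leaving out each sample. The 10 genes and all lists were chosen with earlier results of these data known. Genes named are the 10, the 4 of each muscle list and 2 of each marker list with the highest mean level, *eif4e1b*, the 6 nearest by profile and copies of the 10. Others are said to be chosen after their values were seen. Besides those marked in the text, these are *cacna1da* and *pax7b*. Python 3.11.15, pandas 2.3.3 and matplotlib 3.10.9 made the figures.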

Additional observations from a re-analysis of the deposited data

How the results depend on the processing

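All 9 higher muscle genes stayed higher and past the threshold under each of the 16 alternatives. With copies summed, *ttn.1* and *ttn.2* shared the same fit, as did *ckma* and *ckmb*, and *myhz1.1* and *myhz2*, so their calls there are not separate. All genes called higher ranged from 6140 of 20924 tested (without wild-type replicate 3) to 9840 of 20091 (upper quartiles). *acta1b* never passed it, and its log2 fold change reversed to 0.30 with library totals, 0.54 with upper quartiles and 0.077 with its copy summed. All genes called lower were 3740 with library totals and 4001 with upper quartiles. In the lists, no thick filament gene and no calcium gene (0) and 1 Z-disc gene were called lower with library totals or upper quartiles, and with upper quartiles 0 myogenic regulators. Calcium genes called lower were also 0 with a mean of at least 10 counts, with limma-voom and with the replicate block, myogenic regulators called lower were 0 with the block, and 1 thin filament gene was called lower with copies summed. Without the low-count filter 11 myogenic regulators were called higher. Leaving out a sample gave 1 to 2 lower Z-disc genes and 0 to 1 lower calcium genes and myogenic regulators.

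Reversed single genes, none past the threshold in the main test, were *jam2a* (-0.027) with DESeq2, *tpm3* (0.27), *RYR1* (ENSDARG00000023797, 0.28) and *eno3* (0.66) with upper quartiles, and *eno3* (0.029) with a mean of at least 10 counts. Leaving out a sample moved *eno3* from -1.76 to 0.42 and *epb41b* from -0.29 to 2.76. The causes were not tested, except that filters change which genes are tested. Of 54 other genes followed, 5 lost their call and 10 gained it under some alternative.

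Between samples of the same replicate number the genotypes' deviations correlated at 0.117, -0.195 and -0.0524. With 3 samples per genotype these values cannot show whether the samples were paired. No source says that the numbers mark a shared clutch or day. With the number as a block the median log2 fold change of the 10 genes was 3.16, 9 of 10 genes were higher, and all genes called were 6625 higher and 5887 lower. The calls of *smyhc1* (2.22, adjusted p = 0.093), *cacna1da* and *pax7b* were lost with the block. Wild-type replicate 1 correlated best with mutant replicate 1, and wild-type replicates 2 and 3 with a mutant sample of another number.

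Depth limits the wild-type values of *myhz2* (15 to 37 counts), *myhz1.1* and *ckmb*, and the myogenic regulators under the filter.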
